A study of Mus musculus with 6 samples.

Results

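The genes described here encode the enzymes of the citric acid cycle, with the pyruvate dehydrogenase that feeds it, and a set of enzymes that break down amino acids. They are 38 genes chosen by name, 17 for the cycle and 21 for amino acid breakdown, among the 35275 genes of the deposited count table. All 38 were found there under their own symbol, and all 38 were among the 14883 genes with enough counts for a test. The counts come from poly-A RNA of whole kidneys of C57Bl/6 mice that were wild type (WT). The mice had undergone ischaemia-reperfusion injury, a stop and return of renal blood flow, and were killed 28 days later. Severe kidneys had 35 min of ischaemia (3 libraries, numbered 13, 14 and 15) and mild kidneys had 20 min (3 libraries, numbered 7, 8 and 9). All 6 kidneys were thus injured, uninjured kidneys were not analysed here, and each difference is one of the longer against the shorter ischaemia. The sources used here do not give age, sex or the number of kidneys clamped. They also do not say whether each library came from a separate mouse, so each p-value reflects the spread among the 6 samples, which may be technical.

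The citric acid cycle runs in mitochondria. It takes acetyl groups made from pyruvate, fatty acids and amino acids, oxidises them to carbon dioxide, and hands the electrons to the respiratory chain. Amino acid breakdown removes the amino group by transamination or oxidation and passes the carbon skeleton on as pyruvate, acetyl-CoA or an intermediate of the cycle, such as oxoglutarate, succinyl-CoA, fumarate or oxaloacetate. The proximal tubule, which makes up most of the kidney cortex, is rich in mitochondria, takes up filtered amino acids and carries many of these enzymes.

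The libraries held 15240491 to 17679697 counts in severe and 15366602 to 17730967 counts in mild kidneys. Kidney markers were high in all 6 libraries: the proximal tubule phosphate transporter Slc34a1 lay between 3193 and 6317 CPM in severe and between 6772 and 7841 CPM in mild kidneys, where CPM is the depth-scaled read count, with library sizes scaled by TMM (trimmed mean of M values). Of 5 liver markers, for a tissue that should be absent, Tat, Tdo2 and Apoa1 had at most 15 counts in a library and albumin (Alb) at most 110, while transthyretin (Ttr) had 54.5 to 214 CPM in severe and 107 to 141 CPM in mild kidneys. Severe library 14 stood apart. Its TMM factor was 1.17, against 0.974 and 1.04 in severe libraries 13 and 15 and 0.943 to 0.945 in mild libraries, and severe pairs differed more than mild pairs (chi-square per degree of freedom 15.2 to 75.5 among severe and 3.86 to 5.66 among mild libraries). The main counts and medians are therefore also given without severe libraries 13 and 14. Over all genes, 1 was called higher (0.00672%) and 1 lower (0.00672%) in severe kidneys by edgeR at an adjusted p under 0.05.

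All 38 genes had lower fitted levels in severe than in mild kidneys, where 49.9% of all tested genes did. In 27 of the 38, every severe library lay below every mild library, against 16.1% of all tested genes. The median log2 fold change, severe over mild, was -0.38 over the 38 genes (range -0.78 for Hpd to -0.19 for Idh1) and 0.00 over all tested genes. None of the 38 was called by edgeR's quasi-likelihood test, where 0.00672% of all genes were called lower: the Benjamini-Hochberg adjusted p lay between 0.114 for Prodh2 and 0.437 for Idh1. At an unadjusted p under 0.05, 10 of 38 were lower (4 for the cycle, 6 for amino acid breakdown), against 7.89% of all genes, and 0 were higher, against 15.8%. DESeq2 called 1 of 38, Prodh2 (adjusted p = 0.0368), against 0.993% of all genes called lower, and limma-voom called 0, against 0.00672%. At an unadjusted p under 0.05 limma-voom had 15 of 38 lower, against 8.85% of all genes. In whole-kidney RNA, fewer cells of a type and less RNA per cell cannot be told apart.

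The genes did not differ alike in the 3 severe kidneys. Severe library 14 was the lowest of the 6 libraries in 38 of 38 genes, against 34.5% of all tested genes, and held a median of 57.3% of the mild mean (range 26.2% for Hpd to 75.4% for Idh1). Severe library 15 held a median of 80.4% (55.7% for Hpd to 87.9% for Cs) and severe library 13 a median of 93.2% (82.5% for Prodh2 to 114% for Gldc). Library 14 lay below every mild library in 38 of 38 genes (39.9% of all tested genes), library 15 in 38 of 38 (35.3%), and both together in 38 of 38 (27.9%). Library 13 did so in 27 of 38 (28.6%), lay within the mild range in 10 (42.3%), and lay above it in Prodh. From low to high, the severe libraries stood in the order 14, 15 and 13 in 38 of 38 genes, against 28.7% of all tested genes. The coefficient of variation between libraries was larger in severe than in mild kidneys for 38 of 38 genes, and for 10828 of the 14883 tested genes. Its medians over the 38 genes were 24.6% in severe and 3.13% in mild kidneys. Over all tested genes these medians were 13.5% in severe and 7.21% in mild kidneys. Without severe library 14 the coefficient was larger in severe kidneys for 34 of 38 genes, with a severe median of 10.3%. All tested genes were not counted in that setting.

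**Figure D1:**
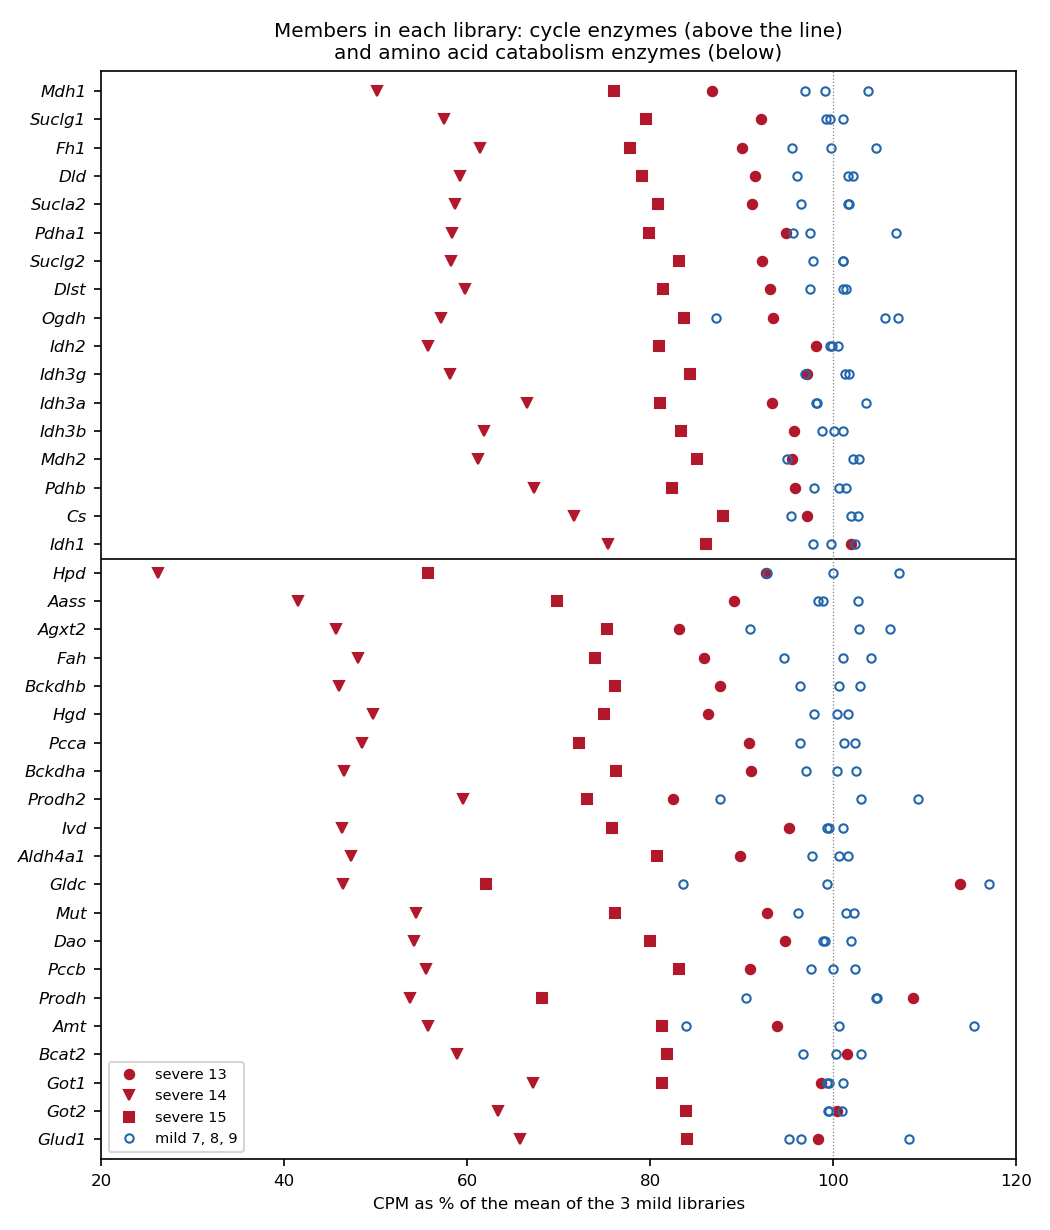
Level of each of the 38 genes in each library as its CPM in percent of the mean CPM of the mild libraries. Cycle and pyruvate dehydrogenase genes are set apart from amino acid breakdown genes. Severe library 14 is the lowest point for each gene, severe library 15 lies below the mild libraries for each gene, and severe library 13 lies close to them.

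Since the 38 genes stood lower together, their promoters were examined. Sequences from 250 bases before to 50 bases after the start of the transcript were read from RefSeq on build GRCm38.p6 for 36 of the 38 genes. Idh3a and Mut had no entry. In the first window of each gene, CpG dinucleotides numbered a median of 21 in cycle genes and 10.5 in amino acid breakdown genes, against 7 over 27025 genes. These 27025 are all genes with a promoter entry, not only those tested here, and shares of all genes in this paragraph refer to them. A motif counted if any window of the gene held it, with 48 windows for the 36 genes and 32851 for the 27025. Short motifs of factors known in kidney epithelium or in mitochondrial genes were searched on both strands; none of the motifs contains another. CCAAT was in 21 of 36 promoters (58.3%, against 41.1% of all genes), the ETS motif CCGGAAG in 5 (13.9%, against 9.93%) and the HNF4A motif CAAAGTCCA in 1, Agxt2 (2.78%, against 0.555%). The NRF1 motif GCGCATGCG was in 2, Ogdh and Pccb (5.56%, against 1.95%), the HNF1 motif GTTAATNAT in 2, Got2 and Prodh2 (5.56%, against 0.94%), and the ERR motif TCAAGGTCA in 0 (0.466% of all genes). The NRF1 and HNF1 motifs were shortened after their longer forms had matched none of the 36. A match describes letters in the window only, and a missing match says nothing of the factor. Hnf4a itself, a regulator of the proximal tubule, had 816, 542 and 715 CPM in severe kidneys, against 943, 948 and 909 CPM in mild kidneys.

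The promoters of 3 genes are shown, those of Fh1 and Prodh2, which had the smallest p of the cycle and of amino acid breakdown, and that of Agxt2 (the first of its windows), which had the HNF4A match. Capitals mark CCAAT boxes (written ATTGG on the other strand) in Fh1 and Prodh2, the HNF1 motif (on the other strand) in Prodh2 and the HNF4A motif in Agxt2, each read along the strand of the gene.
Fh1, chr1:175625586-175625885 (- strand): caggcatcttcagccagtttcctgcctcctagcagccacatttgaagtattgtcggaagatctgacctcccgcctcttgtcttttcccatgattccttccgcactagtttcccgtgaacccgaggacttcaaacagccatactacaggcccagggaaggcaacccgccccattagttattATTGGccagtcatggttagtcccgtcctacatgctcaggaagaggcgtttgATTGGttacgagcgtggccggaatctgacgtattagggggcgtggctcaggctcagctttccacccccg
Prodh2, chr7:30493408-30493707 (+ strand): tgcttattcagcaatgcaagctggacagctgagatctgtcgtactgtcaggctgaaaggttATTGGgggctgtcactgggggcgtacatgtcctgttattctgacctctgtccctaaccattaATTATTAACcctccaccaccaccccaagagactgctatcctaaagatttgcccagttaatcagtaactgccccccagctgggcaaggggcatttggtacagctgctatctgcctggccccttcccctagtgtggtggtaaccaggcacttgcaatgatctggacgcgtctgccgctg
Agxt2, chr15:10358283-10358582 (+ strand): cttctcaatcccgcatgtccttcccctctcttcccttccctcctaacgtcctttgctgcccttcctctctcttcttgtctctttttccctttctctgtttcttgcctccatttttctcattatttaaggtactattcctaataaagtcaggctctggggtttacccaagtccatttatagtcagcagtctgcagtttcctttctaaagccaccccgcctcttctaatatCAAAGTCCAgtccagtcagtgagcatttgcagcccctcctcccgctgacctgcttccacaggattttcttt
The windows of Fh1, Prodh2 and Agxt2 held 14, 5 and 4 CpG dinucleotides and 54.3%, 52.7% and 47.0% G and C.

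The subunits Pdha1 and Pdhb form the component of pyruvate dehydrogenase that decarboxylates pyruvate. Pdha1 stood at 349.7, 215 and 295 CPM in severe kidneys, against 359, 394 and 353 CPM in mild kidneys, with severe kidneys in the order of libraries 13, 14 and 15 and mild kidneys in the order of 7, 8 and 9 here and for each gene. Pdhb stood at 203, 142 and 174 CPM in severe kidneys, against 213, 214 and 207 CPM in mild kidneys. All 3 severe libraries lay below the mild range for both genes, and library 13 lay closest to it. Citrate synthase (Cs) joins acetyl-CoA to oxaloacetate and opens the cycle. Cs had 313, 231 and 283 CPM in severe kidneys, against 307, 328 and 331 CPM in mild kidneys, so severe library 13 lay within the mild range. Its log2 fold change was -0.22 ± 0.13 (SE; adjusted p = 0.32).

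The isocitrate dehydrogenases turn isocitrate into oxoglutarate. Idh1, the cytosolic and peroxisomal enzyme that makes NADPH, differed least of the 38 genes. Idh1 had 648, 479 and 547 CPM in severe kidneys, against 622, 651 and 634 CPM in mild kidneys, a log2 fold change of -0.19 ± 0.15 (SE; adjusted p = 0.437). Idh2, the mitochondrial enzyme that makes NADPH, had 548, 312 and 453 CPM in severe kidneys, against 558, 557 and 562 CPM in mild kidneys. Its severe libraries lay below all mild ones, with library 13 closest to them, at a log2 fold change of -0.35 ± 0.20 (SE; adjusted p = 0.299). Idh3a, Idh3b and Idh3g are the subunits of the NAD-dependent enzyme of the cycle itself. Idh3a, the catalytic subunit, had 182, 130.1 and 159 CPM in severe kidneys, against 192, 203 and 192 CPM in mild kidneys, which gave -0.32 ± 0.13 (SE; adjusted p = 0.199). Its groups did not overlap, nor did those of Idh3b, which had 290.2 ± 62.0 CPM in severe and 361 ± 4.28 CPM in mild kidneys (mean ± SD, n = 3 each). For Idh3g, with 241 ± 60.0 CPM in severe and 301 ± 8.01 CPM in mild kidneys (mean ± SD, n = 3 each), severe library 13 lay within the mild range.

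Ogdh, Dlst and Dld form the oxoglutarate dehydrogenase complex, and Dld also serves pyruvate dehydrogenase, the branched-chain complex and the glycine cleavage system. Ogdh had 725, 443 and 649 CPM in severe kidneys, against 676, 819 and 830.2 CPM in mild kidneys, and severe library 13 lay within the mild range, above mild library 7. Dlst had 423, 271 and 369 CPM in severe kidneys, against 442, 460.4 and 459 CPM in mild kidneys. Dld had 346, 223 and 299 CPM in severe kidneys, against 384, 386 and 363 CPM in mild kidneys. Dlst and Dld both had all severe libraries below all mild ones. The log2 fold change was -0.38 ± 0.17 (SE; adjusted p = 0.209) for Dld.

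Succinyl-CoA ligase makes GTP or ATP, with Suclg1 as the shared alpha subunit. Suclg1 had 308, 192 and 266 CPM in severe kidneys, against 338, 332 and 334 CPM in mild kidneys, without overlap. Suclg2, the beta subunit for GTP, had 413 ± 93.5 CPM in severe and 531 ± 10.0 CPM in mild kidneys (mean ± SD, n = 3 each). Sucla2, the beta subunit for ATP, had 176 ± 37.9 CPM in severe and 228 ± 6.83 CPM in mild kidneys (mean ± SD, n = 3 each). Its log2 fold change was -0.38 ± 0.16 (SE; adjusted p = 0.202). In both beta subunits all severe libraries lay below all mild ones.

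Fumarase (Fh1) hydrates fumarate to malate, and the malate dehydrogenases oxidise malate to oxaloacetate. Fh1 had 207, 141 and 179 CPM in severe kidneys, against 229, 241 and 219.6 CPM in mild kidneys, which gave -0.39 ± 0.14 (SE; adjusted p = 0.172), the smallest p of the cycle genes. Each severe library lay below each mild one. In mm10 coordinates Fh1 (ENSMUSG00000026526) spans 175600374 to 175625635 of chromosome 1 (minus strand) and overlaps the gene Kmo on the other strand, which had up to 2183 counts in a library, against at least 2509 for Fh1. Whether counting used strand is not stated, so reads of such a pair cannot be told apart. Mdh1, the cytosolic enzyme of the malate-aspartate shuttle, had the largest difference of the cycle genes. Mdh1 had 1081, 625 and 948 CPM in severe kidneys, against 1294, 1236 and 1208 CPM in mild kidneys, a log2 fold change of -0.49 ± 0.21 (SE; adjusted p = 0.212) without overlap. Mdh1 (ENSMUSG00000020321) spans 21556787 to 21572367 of chromosome 11 (minus strand). Mdh2, the mitochondrial enzyme, had 436, 279 and 388 CPM in severe kidneys, against 433, 466 and 469 CPM in mild kidneys, and severe library 13 lay within the mild range.

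Among the enzymes of amino acid breakdown, those that link glutamate and aspartate to the cycle differed least. Glutamate dehydrogenase (Glud1) releases ammonia from glutamate and yields oxoglutarate. Glud1 had 510.4, 341 and 436 CPM in severe kidneys, against 494, 562 and 501 CPM in mild kidneys, with library 13 within the mild range, at a log2 fold change of -0.27 ± 0.17 (SE; adjusted p = 0.327). The aspartate aminotransferases Got1 (cytosolic) and Got2 (mitochondrial) complete the malate-aspartate shuttle. Got1 had 135, 91.9 and 111 CPM in severe kidneys, against 136, 138 and 136 CPM in mild kidneys, so library 13 lay just under the mild range. Got2 had 418, 264 and 349.6 CPM in severe kidneys, against 415, 415 and 421 CPM in mild kidneys, so library 13 lay within it. Their log2 fold changes were -0.28 for each.

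Proline dehydrogenase (Prodh), hydroxyproline dehydrogenase (Prodh2) and Aldh4a1, which oxidises the product of both to glutamate or its hydroxylated form, break down proline and hydroxyproline, and collagen is rich in both of these amino acids. Prodh had 319, 158 and 200.4 CPM in severe kidneys, against 266, 307 and 308 CPM in mild kidneys. Severe library 13 was the highest of all 6 libraries and the other 2 severe libraries were the lowest. Prodh2 had 94.7, 68.4 and 84.0 CPM in severe kidneys, against 101, 118 and 126 CPM in mild kidneys, without overlap, a log2 fold change of -0.48 ± 0.14 (SE; adjusted p = 0.114), the smallest p of the 38 genes. Prodh2 (ENSMUSG00000036892) spans 30493622 to 30513402 of chromosome 7 (plus strand). Aldh4a1 had 236, 124 and 212 CPM in severe kidneys, against 256, 267 and 264 CPM in mild kidneys, also without overlap.

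Branched-chain amino acids are first transaminated by Bcat2 in mitochondria. Bcat2 had 86.5, 50.1 and 69.7 CPM in severe kidneys, against 85.4, 87.7 and 82.4 CPM in mild kidneys, with severe library 13 within the mild range. Bckdha and Bckdhb, the subunits of the decarboxylating component of the branched-chain ketoacid dehydrogenase, had no overlap. Bckdha had 301, 154 and 252 CPM in severe kidneys, against 332, 320.5 and 339 CPM in mild kidneys. Bckdhb had 50.4, 26.4 and 43.8 CPM in severe kidneys, against 59.1, 57.8 and 55.4 CPM in mild kidneys. The log2 fold changes were -0.49 ± 0.22 (SE; adjusted p = 0.226) for Bckdha and -0.52 ± 0.21 (SE; adjusted p = 0.193) for Bckdhb. Isovaleryl-CoA dehydrogenase (Ivd) acts next on the leucine branch. Ivd had 562, 274 and 448 CPM in severe kidneys, against 586, 588 and 597 CPM in mild kidneys, without overlap.

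Propionyl-CoA carboxylase (Pcca and Pccb) and methylmalonyl-CoA mutase (Mut) carry the carbon of isoleucine, valine, methionine and threonine to succinyl-CoA. Pcca had 186, 99.1 and 148 CPM in severe kidneys, against 197, 207 and 209 CPM in mild kidneys. Mut had 278, 163 and 228 CPM in severe kidneys, against 288, 306 and 304 CPM in mild kidneys. Pccb had 329 ± 79.9 CPM in severe and 429.5 ± 10.5 CPM in mild kidneys (mean ± SD, n = 3 each). In none of the 3 did a severe library reach the mild range, and the log2 fold change of Pcca was -0.50 ± 0.20 (SE; adjusted p = 0.195).

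Hpd, Hgd and Fah are successive enzymes of tyrosine breakdown, which ends in fumarate and acetoacetate. Hpd had 21.5, 6.08 and 12.9 CPM in severe kidneys, against 23.2, 21.5 and 24.8 CPM in mild kidneys, the largest difference of the 38 genes, -0.78 ± 0.37 (SE; adjusted p = 0.234). Severe library 13 (21.46 CPM) lay only just below mild library 8 (21.498 CPM), the other severe libraries lay far below, and Hpd had the fewest counts of the 38 genes (108 in severe library 14). Hpd (ENSMUSG00000029445) spans 123171807 to 123182725 of chromosome 5 (minus strand). Hgd had 348, 201 and 302 CPM in severe kidneys, against 406, 410.1 and 395 CPM in mild kidneys. Fah had 342, 191 and 294 CPM in severe kidneys, against 376, 402 and 414 CPM in mild kidneys. Both were without overlap, with log2 fold changes of -0.51 ± 0.19 (SE; adjusted p = 0.181) for Hgd and -0.53 ± 0.20 (SE; adjusted p = 0.182) for Fah.

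The glycine cleavage system varied most between mild kidneys. Gldc, its decarboxylase, had 199, 81.3 and 109 CPM in severe kidneys, against 146, 205 and 174 CPM in mild kidneys. Severe library 13 lay within the mild range and the other 2 severe libraries lay below it, at a log2 fold change of -0.43 ± 0.30 (SE; adjusted p = 0.388). Amt, its aminomethyltransferase, had 64.5, 38.3 and 55.9 CPM in severe kidneys, against 57.7, 79.3 and 69.2 CPM in mild kidneys, with the same placement. Dao, the D-amino acid oxidase of peroxisomes, had 341 ± 91.6 CPM in severe and 446 ± 7.68 CPM in mild kidneys (mean ± SD, n = 3 each), without overlap.

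Aass begins lysine breakdown in mitochondria. Aass had 498, 232 and 390.2 CPM in severe kidneys, against 553, 549.7 and 574 CPM in mild kidneys, a log2 fold change of -0.58 ± 0.25 (SE; adjusted p = 0.211), without overlap. Agxt2, a mitochondrial aminotransferase that uses glyoxylate or pyruvate as acceptor and is expressed in kidney and liver, stood next to Prodh2 by p-value. Agxt2 had 114, 62.5 and 103 CPM in severe kidneys, against 124, 145 and 141 CPM in mild kidneys, without overlap, at a log2 fold change of -0.56 ± 0.20 (SE; adjusted p = 0.17).

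**Figure D2:**
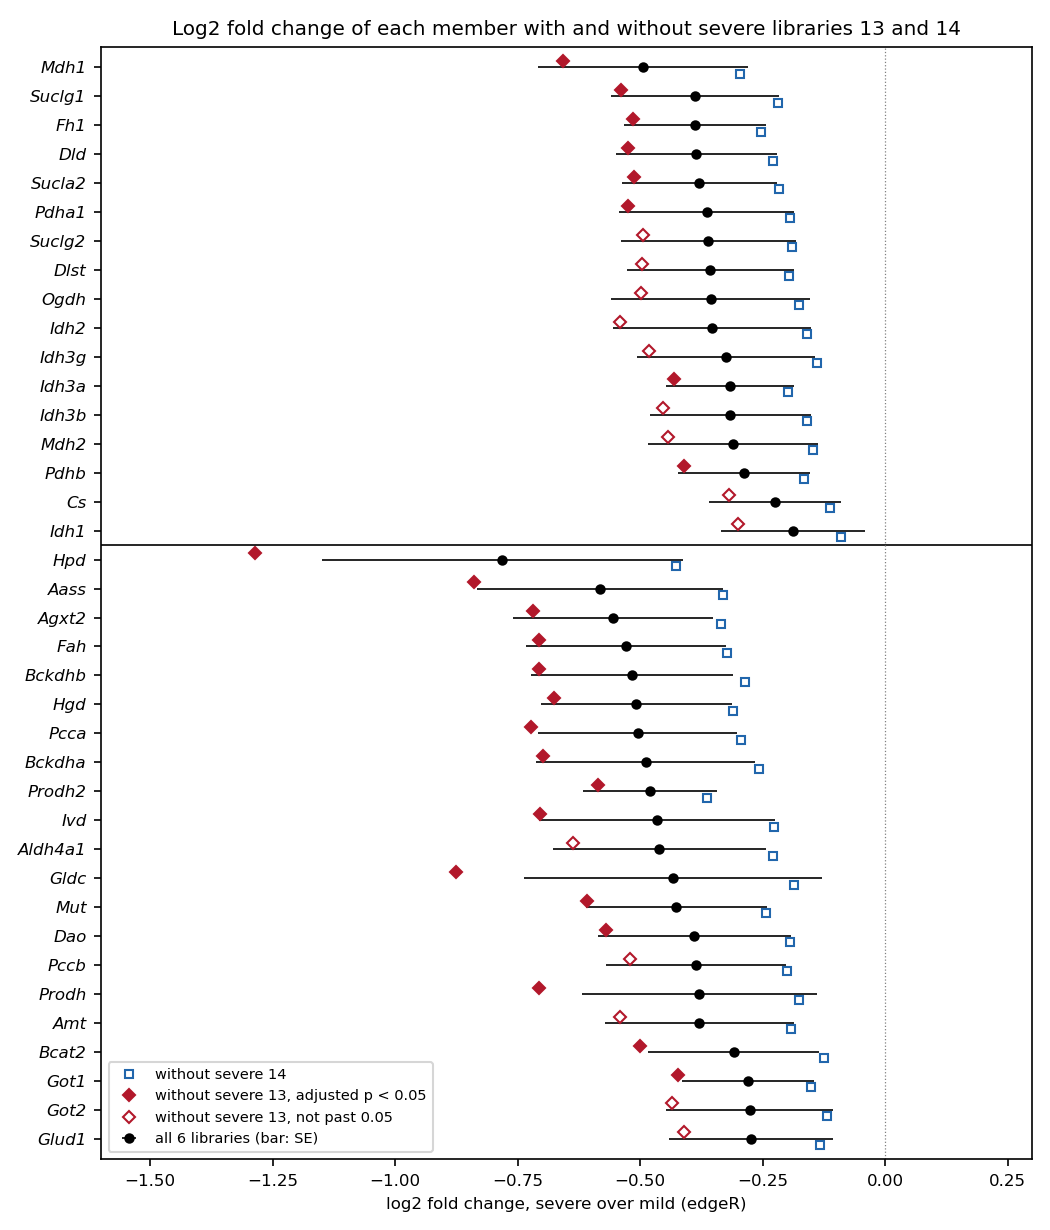
Log2 fold change, severe over mild, of each of the 38 genes with its standard error from edgeR, beside the values without severe library 13 and without severe library 14. All points lie below 0; without library 13 they lie further from 0 and without library 14 closer to it.

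Levels per kilobase of gene length (RPKM from the TMM-scaled counts and the deposited gene lengths) allow genes to be compared. The cycle genes had a median of 128 RPKM in severe and 164 RPKM in mild kidneys, and the amino acid breakdown genes 60.6 RPKM in severe and 81.5 RPKM in mild kidneys. The severe medians were 143 RPKM for the cycle and 68.8 RPKM for amino acid breakdown without severe library 14. Mdh1 was the highest of the 38, with 417 RPKM in severe and 587 RPKM in mild kidneys. Hpd was the lowest, with 9.62 RPKM in severe and 16.5 RPKM in mild kidneys. Among the amino acid breakdown genes Fah was the highest in both groups, with 187 RPKM in severe and 271 RPKM in mild kidneys. Besides Fh1, opposite-strand genes with many counts overlap Bcat2 (0610005C13Rik, up to 1243 counts), Pcca (Ggact, 824), Prodh (Dgcr6, 755), Idh3b (Nop56, 747) and Pdha1 (Map3k15, 598).

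Enzymes of amino acid breakdown were set against those of the cycle. The median log2 fold change was -0.46 for amino acid breakdown and -0.36 for the cycle, a difference of -0.10. Pooled over the severe and mild groups, the SD of that difference between libraries was 0.0852. As the mean over genes of log2 CPM minus the mild mean, amino acid breakdown minus cycle was -0.01, -0.26 and -0.12 in severe libraries 13, 14 and 15, against -0.03, 0.01 and 0.03 in mild libraries 7, 8 and 9. Severe library 13 thus lay within the mild range, and libraries 14 and 15 lay below it. These values spread more among severe than among mild libraries, which the pooled SD does not show. In severe library 14, 11 of 21 amino acid breakdown genes and 0 of 17 cycle genes had under 50% of the mild mean (4.33% of all tested genes). In severe library 15, 14 of 21 amino acid breakdown genes and 5 of 17 cycle genes had under 80% (10.9% of all tested genes). Both percentages were chosen after the values were seen, and the counts depend on them. In severe library 14 the cycle gene Mdh1 had 50.2% and the amino acid breakdown gene Hgd 49.7% of the mild mean. Without overlap between groups were 15 of 21 amino acid breakdown genes and 12 of 17 cycle genes (16.1% of all tested genes were lower in every severe library). The difference of the medians was -0.18 without severe library 13 and -0.04 without severe library 14.

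**Figure D3:**
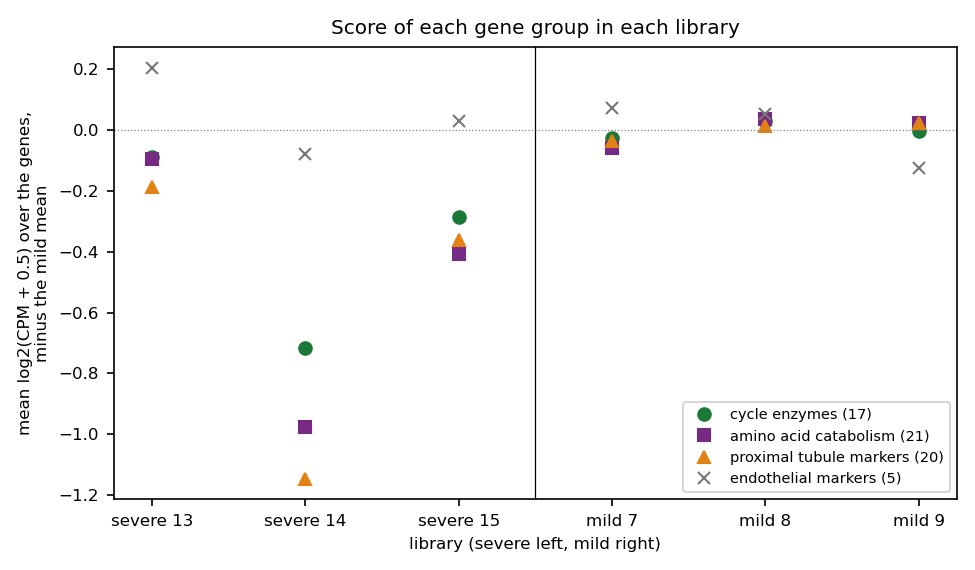
Mean over genes of log2 CPM minus the mean of the mild libraries, after adding 0.5 CPM, for cycle genes, amino acid breakdown genes, proximal tubule markers and endothelial markers in each library. The first 3 lists are lowest in severe library 14, where amino acid breakdown genes (-0.97) lie below cycle genes (-0.72); the endothelial markers lie between -0.12 and 0.21 in all 6 libraries.

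Ratios between partner genes within a library do not depend on the scaling, and 8 pairs were compared. With 3 against 3 libraries an exact two-sided permutation test cannot give a p below 0.1. The log2 ratio of the mitochondrial Mdh2 to the cytosolic Mdh1 was -1.31, -1.16 and -1.29 in severe kidneys, against -1.58, -1.41 and -1.37 in mild kidneys. It was higher by 0.20 in severe kidneys, without overlap (exact permutation p = 0.1, adjusted over the 8 pairs p = 0.4). The log2 ratio of the mitochondrial Idh2 to the cytosolic Idh1 was -0.24, -0.62 and -0.27 in severe kidneys, against -0.16, -0.23 and -0.17 in mild kidneys. It differed by -0.19, also without overlap (exact permutation p = 0.1, adjusted p = 0.4). Without severe library 14 the difference was -0.07 for Idh2 over Idh1 and 0.15 for Mdh2 over Mdh1. For Got2 over Got1 the difference was 0.00 (exact permutation p = 1, adjusted p = 1). Pcca over Pccb differed by -0.13 (exact permutation p = 0.2, adjusted p = 0.533). Pdha1 over Pdhb differed by -0.09, Prodh2 over Prodh by -0.05, Bckdha over Bckdhb by 0.02 and Suclg2 over Sucla2 by 0.02, with exact permutation p-values from 0.5 to 1. Prodh2 over Prodh differed by 0.13 without severe library 13 and by -0.15 without severe library 14, and Pdha1 over Pdhb by -0.03 without severe library 14.

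**Figure D4:**
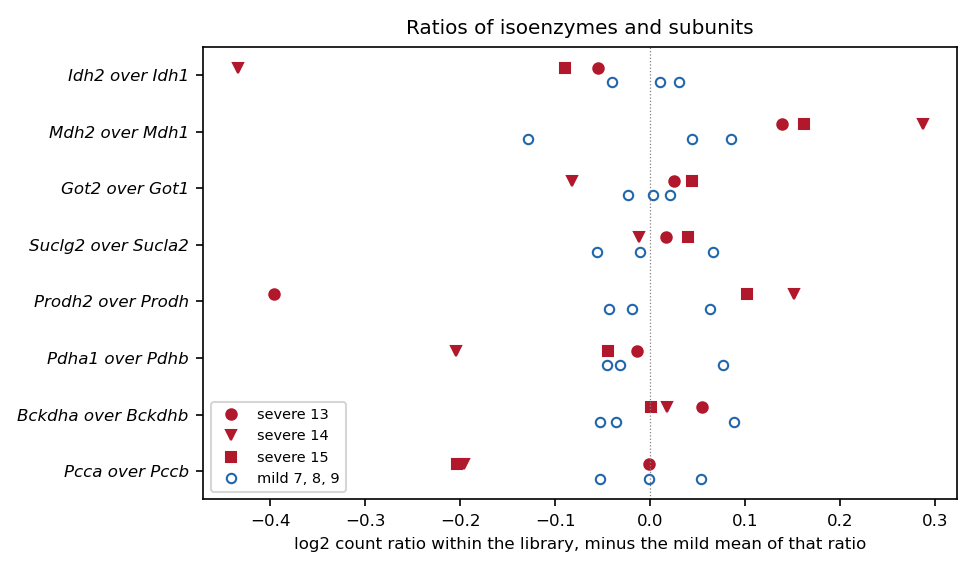
Log2 ratio of the counts of partner genes in each library, minus the mean of the mild libraries, for the 8 pairs. The severe libraries lie above the mild ones for Mdh2 over Mdh1 and below them for Idh2 over Idh1, and in the other pairs the ranges of the groups overlap.

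Leaving out a severe library moved the calls. Without severe library 13, edgeR called 24 of 38 genes lower, 8 of the cycle and 16 of amino acid breakdown, where 7.74% of all genes were called lower, and 0 of 38 higher, where 13.8% were. The cycle genes were Idh3a, Dld, Suclg1, Sucla2, Fh1, Mdh1, Pdha1 and Pdhb. The others were Got1, Prodh, Prodh2, Bckdha, Bckdhb, Bcat2, Ivd, Mut, Pcca, Hpd, Hgd, Fah, Gldc, Dao, Aass and Agxt2. The lowest adjusted p was 0.0127 for Gldc, and the median log2 fold change was -0.53. Without severe library 14, edgeR called 0 of 38 (lowest adjusted p = 0.0502 for Agxt2), where 0.931% of all genes were called lower, and 21 of 38 were lower at an unadjusted p under 0.05, where 9.0% were. The median was then -0.20. Without severe library 15, or without any 1 of the mild libraries, 0 of 38 were called, where 0.0% of all genes were called lower, and 1 or 2 of 38 were lower at an unadjusted p under 0.05, where 2.88% to 5.16% were. With library quality weights in limma-voom, 35 of 38 were called lower, 15 of the cycle and 20 of amino acid breakdown, against 15.7% of all genes. Those weights were 0.429, 0.178 and 4.33 for severe libraries 13, 14 and 15 and 1.32 to 1.61 for mild libraries, so severe library 15 weighed most. In the full set of libraries 0 of 38 were called with RLE or upper-quartile scaling (0.00672% of all genes lower), with library totals (0.0%), with no filter on low counts (0.0529%), with at least 1 CPM in 3 libraries (0.00708%) and without mitochondrial and very abundant genes (0.00673%). Scaling by library totals moved the median of all genes to 0.17 and that of the 38 genes to -0.23, which is -0.40 relative to all genes. All 38 log2 fold changes were below 0 under each of the 15 alternatives.

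Markers of cell types were set beside these genes. All 20 proximal tubule markers had a log2 fold change below 0 (median -0.51), 16 of them lower in every severe library (16.1% of all tested genes). The median was -0.70 without severe library 13 and -0.27 without severe library 14. Their summed level was 39520, 19832 and 35355 CPM in severe libraries 13, 14 and 15, against 47473, 45036 and 45107 CPM in mild libraries 7, 8 and 9. As mean log2 CPM minus the mild mean, they stood at -0.19, -1.15 and -0.36 in severe kidneys, the cycle genes at -0.09, -0.72 and -0.29, and the amino acid breakdown genes at -0.10, -0.97 and -0.41. Taken minus the proximal tubule score, the cycle score was 0.10, 0.43 and 0.07 in severe kidneys, against 0.01, 0.02 and -0.03 in mild kidneys, and lay above the mild range in all 3. The amino acid breakdown score minus the proximal tubule score was 0.09, 0.17 and -0.05 in severe kidneys, against -0.02, 0.02 and 0.00 in mild kidneys, and lay above the mild range in libraries 13 and 14 and below it in library 15.

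Of other epithelial markers, 8 of the thick ascending limb had a median log2 fold change of -0.48, with 7 below 0. The median was -0.43 over 5 of the distal convoluted tubule, with 5 below 0, and -0.18 over 8 of the collecting duct, with 6 below 0. Lower in every severe library were 5 of 8, 3 of 5 and 1 of 8 in the same order, against 16.1% of all tested genes. Without severe library 14 these medians were -0.31, -0.26 and -0.08 in the same order, and the collecting duct median was -0.33 without severe library 13. The median was -0.12 for 5 podocyte markers (-0.01 without severe library 14). It was 0.05 for 5 endothelial markers (0.03 without severe library 13 and 0.12 without severe library 14). For 5 T cell markers it was 0.60 (0.76 without severe library 13 and 0.55 without severe library 14). The T cell markers had only 0.138 to 3.87 CPM, and 0 of 5 lay above the mild range in every severe library (17.9% of all tested genes). By edgeR, 0 of 5 were higher at an unadjusted p under 0.05 (15.8% of all genes). For the 3 hepatocyte markers that could be tested, the median was -0.70 (-1.17 without severe library 13 and -0.43 without severe library 14). That median was the value of Alb, with at most 110 counts in a library. Ttr stood at -0.04 and Apoa1, with at most 15 counts, at -1.31. All 9 tested macrophage markers and all 9 fibroblast markers lay above the mild range in every severe library, against 17.9% of all tested genes. Their summed levels were 641 to 1211 CPM (macrophage) and 1215 to 3997 CPM (fibroblast) in severe kidneys, against 338 to 409 CPM and 579 to 731 CPM in mild kidneys. Both sums were highest in severe library 14. The median log2 fold change was 1.14 for macrophage markers (0.81 without severe library 14) and 1.86 for fibroblast markers (1.29 without severe library 14). The part of these cell types in the levels of the 38 genes was not tested.

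Other enzymes of the same pathways, 110 genes listed by function, were examined beside the 38. They were chosen with earlier results of these data known, so they are not an independent check. Of 105 tested, 95 had a log2 fold change below 0 (median -0.37). Lower in every severe library were 63 (16.1% of all tested genes) and higher in every severe library 4 (17.9%). EdgeR called 0 of them, with 25 lower (7.89% of all genes) and 5 higher (15.8% of all genes) at an unadjusted p under 0.05. DESeq2 called 1 higher, Aldh18a1 (adjusted p = 0.0286), where 7.19% of all genes were called higher, and 1 lower, Gatm (adjusted p = 0.0460), where 0.993% were. Limma-voom called 0. The other 5 genes, Tat, Sds, Hal, Agxt and Hao1, had at most 3 counts in any library. Without severe library 13, edgeR called 50 of the 105 lower (7.74% of all genes) and 3 higher (13.8%). Without severe library 14 it called 2, Haao and Dmgdh, both lower (0.931%). The median of the 105 was -0.51 without severe library 13 and -0.20 without severe library 14.

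Further cycle enzymes also stood lower. Of 7 such genes, 6 were lower in every severe library (16.1% of all tested genes). The succinate dehydrogenase subunit Sdha had 961, 579.97 and 815 CPM in severe kidneys, against 1009, 1032 and 1074 CPM in mild kidneys, without overlap. Of 11 genes of pyruvate entry, 10 had a log2 fold change below 0. The mitochondrial pyruvate carrier Mpc2 had 273, 173 and 259 CPM in severe kidneys, against 312, 306 and 295 CPM in mild kidneys, without overlap. The pyruvate dehydrogenase phosphatase Pdp1, the exception, had 7.15, 9.90 and 8.24 CPM in severe kidneys, against 4.89, 7.19 and 6.04 CPM in mild kidneys. Of 9 genes for malic enzymes, ATP citrate lyase and carriers of citrate and dicarboxylates, 8 were below 0, and Me2, a mitochondrial malic enzyme, stood at 0.34 ± 0.15 (SE).

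In the further lists of amino acid breakdown most genes also had lower fitted levels. All 18 further genes of branched-chain breakdown were below 0, with Mccc1, a subunit of the leucine enzyme methylcrotonyl-CoA carboxylase, at -0.54 ± 0.20 (SE). The 4 tested genes of tyrosine and phenylalanine breakdown were all lower in every severe library (16.1% of all tested genes). Among them Gstz1, the maleylacetoacetate isomerase that acts between Hgd and Fah, had 221, 124 and 181 CPM in severe kidneys, against 252, 246 and 237 CPM in mild kidneys. Of 15 genes of glycine, serine and one-carbon metabolism, 14 were below 0, with Gatm, which makes the precursor of creatine, at -0.58 ± 0.22 (SE) and dimethylglycine dehydrogenase (Dmgdh) at -0.71 ± 0.28 (SE). All 10 of lysine and tryptophan breakdown were below 0, with Haao at -0.61 ± 0.25 (SE). So were 10 of 11 of histidine and sulphur amino acids, with Ahcy, which splits S-adenosylhomocysteine, at -0.58 ± 0.24 (SE), and all 8 of aspartate, glyoxylate and D-amino acids, with Aspa, which splits N-acetylaspartate, at -0.56 ± 0.22 (SE).

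The list of glutamine, proline and arginine metabolism had the median log2 fold change closest to 0 of the 10 lists, -0.12, with 7 of 12 genes below 0. Its higher genes included enzymes that make proline, the reverse of the path of Prodh and Aldh4a1. Aldh18a1, which makes the precursor pyrroline carboxylate from glutamate, had 6.46, 14.9 and 9.96 CPM in severe kidneys, against 4.89, 4.49 and 6.18 CPM in mild kidneys, 1.01 ± 0.30 (SE) on the log2 scale. Pycr1, which reduces it to proline, had 1.34, 1.97 and 2.15 CPM in severe kidneys, against 0.689, 0.838 and 1.03 CPM in mild kidneys, 1.09 ± 0.31 (SE) on the log2 scale. Arg2, the mitochondrial arginase, had 7.27, 16.7 and 8.30 CPM in severe kidneys, against 6.34, 5.63 and 7.07 CPM in mild kidneys, 0.76 ± 0.31 (SE) on the log2 scale. All 3 lay above the mild range in every severe library (17.9% of all tested genes). Severe library 14 was the highest for Aldh18a1 and Arg2, and severe library 15 for Pycr1. Without severe library 13 these were the 3 genes called higher. Without severe library 14 none of them was called, with log2 fold changes of 0.66 for Aldh18a1, 1.02 for Pycr1 and 0.30 for Arg2.

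**Figure D5:**
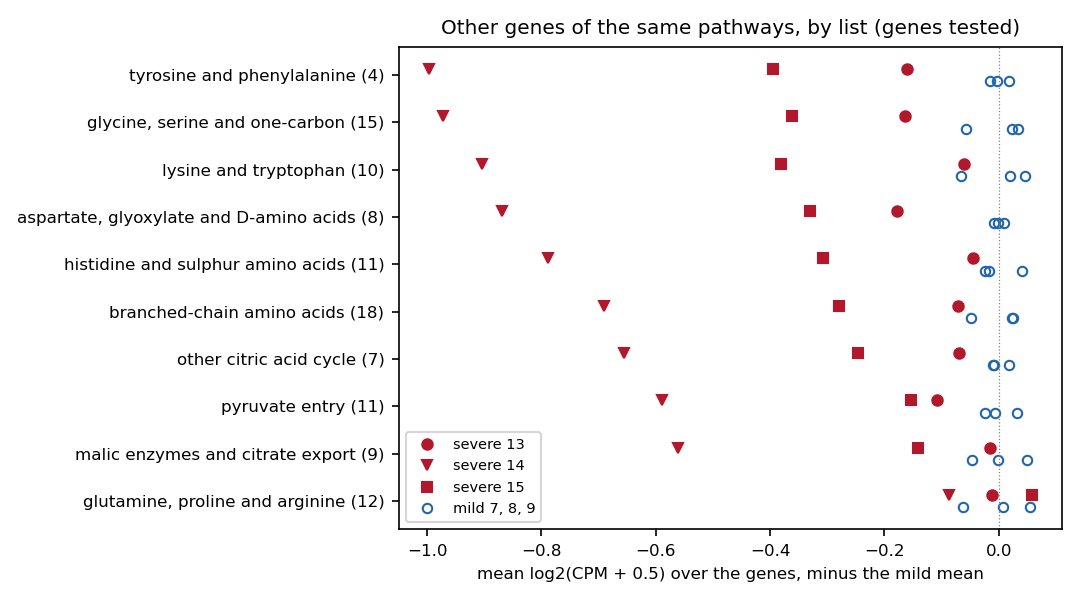
Mean log2 CPM minus the mean of the mild libraries over the tested genes of each of the 10 further lists, in each library. Severe library 14 is the lowest in each list, and the list of glutamine, proline and arginine metabolism lies closest to 0.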

How the data were processed

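Per the labels' protocols, kidney RNA was extracted with TRIzol, poly-A selected and prepared for sequencing with the NEBNext Ultra kit. Build mm10, HTSeq 0.6.1, TopHat2 2.0.12 and Bowtie2 2.2.3 are listed in the submitters' processing notes. Their settings, the annotation and the use of strand are not given in these sources. The authors deposited raw read counts per gene, with gene length and position. Column names give each library's minutes of ischaemia, and their numbers match no sample title, so libraries were grouped and not paired; 0 columns of per-sample values were left unused. Library totals lay between 15240491 and 17730967 counts.

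Genes passing filterByExpr were scaled by TMM and tested, severe over mild, with edgeR 4.0.16 (quasi-likelihood test, R 4.3.3). P-values were adjusted by Benjamini-Hochberg over 14883 genes with a threshold of 0.05, and the code was tested on simulated data. The biological coefficient of variation was 0.144. CPM used TMM-scaled library sizes, per-library log2 scores added 0.5 CPM, and standard errors are the fold change over the root of F. Alternatives were 3 other scalings, 2 other filters, DESeq2 1.42.0, limma-voom 3.58.1 with and without quality weights, removal of mitochondrial and very abundant genes, and each library left out. Marker lists, further lists, partner ratios, RPKM and coefficients of variation without single severe libraries were added after seeing the data. Ratios of partner genes were compared by exact permutation over 20 assignments. The 38 genes, the further pathway lists and the marker lists were chosen with earlier results of these data known. Every one of the 38 genes and of the markers could be named, and of each further list the up to 4 genes with the smallest p. Figures were drawn with matplotlib 3.10.9.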

Additional observations from a re-analysis of the deposited data

How the results depend on the processing

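The median log2 fold changes of the 38 genes, of the cycle and of amino acid breakdown, their difference, and the count of genes without overlap between groups (27) moved by less than the spread between libraries or by less than 1.5 times under all alternatives run. For the runs without a severe library these limits say little. The spread includes the library left out, and the count cannot exceed 38. All 570 single-gene values under the 15 alternatives were below 0. Counts of calls moved. Over all genes, 2 were called by edgeR, against 1 with library totals, 146 without a filter, 1171 with DESeq2 and 5041 with limma-voom quality weights. Of the 38 genes, 0 were called by edgeR, against 1 with DESeq2 and 35 with quality weights. Of the further pathway genes, 0 were called by edgeR, against 2 with DESeq2 and 78 with quality weights. Leaving out 1 library gave 0 to 3269 calls over all genes, 0 to 24 among the 38 genes and 0 to 53 among the further genes, with the highest count without severe library 13 in each case. Without severe library 14, 501 genes were called over all genes. The median of the 38 genes then lay between -0.53 (without severe library 13) and -0.20 (without severe library 14). A cause of these shifts was not tested. Each of the 38 genes had at least 108 counts in each library. No paired analysis was possible because the replicate numbers in the sample titles differ between the groups and match no column.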
